A study of Homo sapiens with 4 samples.

Results

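The ERBB receptors and their EGF-family ligands were examined in RNAseq data of T24 cells, a human bladder carcinoma line. Members were taken by gene symbol, and the rule itself used no measured value. The symbols were chosen with earlier results of these data known. The members comprised 10 of the 57879 genes in the files. These were 3 receptor genes (EGFR, ERBB2 and ERBB3) and 7 ligand genes (AREG, EREG, HBEGF, TGFA, BTC, EPGN and NRG1), for which 109 of the 195700 listed transcripts were given. The control cells, called EV in the study, carried an empty vector, and the TET1-CD cells stably expressed the FLAG-tagged catalytic domain of TET1, an enzyme that oxidises 5-methylcytosine. Both were grown in RPMI with fetal serum and had been selected with puromycin after lentiviral transduction. All 4 libraries bear the source label T24_induced, without a statement of what was induced. Each group had 2 libraries, and neither the labels nor the methods say that these came from separate cultures, so the p-values measure the spread between libraries, which may be technical. The values are estimated fragment counts per transcript from the authors, which were summed per gene. The quasi-likelihood test of edgeR compared the groups over all genes, with Benjamini-Hochberg adjustment. With 2 libraries against 2, an exact permutation test of a single gene cannot give a two-sided p below 0.333, so the single-gene tests rest on a spread borrowed across genes.

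ERBB receptors are tyrosine kinases of the cell surface that act as pairs. EGFR is bound by AREG, EREG, HBEGF, TGFA, BTC and EPGN, whereas NRG1 binds ERBB3 and ERBB4. ERBB2 has no known ligand and serves as the preferred partner of the others, and ERBB3 has little kinase activity of its own. The ligands are made as membrane-bound precursors and are released by ADAM proteases, among which ADAM17 is the main one for HBEGF, TGFA, AREG and EREG. In the urothelium and in bladder carcinoma, signalling from these receptors contributes to proliferation and wound repair through the RAS/ERK and PI3K pathways.

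In TET1-CD cells, HBEGF was higher by 40.9% and ERBB2 was lower by a fold of 0.757, while EGFR, the most abundant receptor transcript, did not differ detectably. EPGN had 14 and 15 counts in TET1-CD and 0 and 4 in control libraries. All 10 members passed the filter on low counts, and 3 passed an adjusted p of 0.05, 2 of them higher and 1 lower. EPGN passed that filter through its TET1-CD libraries alone, so it was tested only because it was high there, and its call is given as a description. Over the 14573 genes tested, 19.7% were called at this threshold, 10.0% higher and 9.61% lower. EPGN was also the only member past a fold change of 2, against 3.77% of all genes tested, and with the same reservation this count says nothing further about the members. With a filter of 10 counts in every library, which removes EPGN and AREG, HBEGF and ERBB2 were called, and 20.0% of all genes tested were. The normalized counts of the groups did not overlap for 7 members and overlapped for EGFR, AREG and NRG1. Over all genes tested, the groups did not overlap for 61.0%. The median log2 fold change of the members was -0.08, against 0.001 over all genes. With so few members, these shares are a description of the 10 genes and not a test of the family.

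The promoters of 3 members are shown, since they belong to the members that passed the test. CpG dinucleotides, whose cytosine is a TET substrate only where it is methylated, are in capitals. Each runs from 250 bases before to 50 bases after the gene start, as RefSeq gives it on GRCh38.p14, whereas the positions of genes and transcripts in the other paragraphs are on GRCh37. The HBEGF promoter (chr5:140346554-140346853, minus strand) holds 38 CpG sites, the ERBB2 promoter (chr17:39687844-39688143, plus strand) 24, and the EPGN promoter (chr4:74308220-74308519, plus strand) 4. The ERBB2 window lies at the listed gene start, and starts of its other transcripts were not examined. The gene PGAP3 overlaps ERBB2 on the opposite strand, so these sites cannot be credited to ERBB2 alone. Sequences are written 5′ to 3′ on the gene's strand.
HBEGF: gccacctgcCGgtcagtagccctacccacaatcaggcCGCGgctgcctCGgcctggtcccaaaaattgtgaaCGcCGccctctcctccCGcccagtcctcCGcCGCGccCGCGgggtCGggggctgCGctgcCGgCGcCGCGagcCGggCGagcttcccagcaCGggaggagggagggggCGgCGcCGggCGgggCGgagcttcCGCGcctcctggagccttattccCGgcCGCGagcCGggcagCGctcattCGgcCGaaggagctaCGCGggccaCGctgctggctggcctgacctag
ERBB2: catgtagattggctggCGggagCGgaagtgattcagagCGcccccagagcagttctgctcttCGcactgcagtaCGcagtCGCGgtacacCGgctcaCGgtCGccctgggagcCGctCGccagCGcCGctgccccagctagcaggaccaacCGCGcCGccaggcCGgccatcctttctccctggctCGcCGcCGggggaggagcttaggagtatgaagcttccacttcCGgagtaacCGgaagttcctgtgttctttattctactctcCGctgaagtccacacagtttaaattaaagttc
EPGN: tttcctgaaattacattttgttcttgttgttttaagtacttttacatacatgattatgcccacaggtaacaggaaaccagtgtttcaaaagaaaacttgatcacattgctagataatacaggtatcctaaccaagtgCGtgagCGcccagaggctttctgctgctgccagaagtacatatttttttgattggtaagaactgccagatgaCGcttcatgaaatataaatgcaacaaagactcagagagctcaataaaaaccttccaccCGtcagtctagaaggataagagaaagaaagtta

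Of the 35116 promoters of this length in the RefSeq table, 9.91% hold at least as many CpG sites as that of HBEGF, 33.9% as many as that of ERBB2 and 75.5% as many as that of EPGN, and the median is 14. Among the members that were not called, the AREG promoter holds 27 sites, those of EREG and BTC 12 each, the entries of TGFA 22 and 30, and those of EGFR 1 and 33. Of the called members, HBEGF and ERBB2 lay above the median, and EPGN, which was tested only through its high TET1-CD counts, lay below it. The search was for the letters CG, which read the same on both strands. No DNA methylation was measured in these libraries, and a relation between CpG content and expression was not tested. ERBB3 and NRG1 were not matched in the promoter table.

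Estimated counts totalled 17442143 to 20295266 fragments per library, with overlapping ranges of the groups. TET1 (chromosome 10, 70320413 to 70454239), which checks the labels, was at 111 and 83 counts in control cells and at 2939 and 3310 in TET1-CD cells, a log2 fold change of 5.02 ± 0.08 (SE). Of 15 urothelial markers, 6 were at or under 3 counts in every library, namely the uroplakins UPK1A, UPK1B and UPK3A and also KRT20, KRT5 and TP63, whereas the simple epithelial keratins KRT7, KRT8 and KRT18 each had at least 10759 counts in every library. The normalized counts of this list summed to 44086 to 44423 in control and 49424 to 50103 in TET1-CD libraries. Those of the 7 mesenchymal markers, VIM and FN1 among them, summed to 132402 to 133383 and 104983 to 108933. Both sums thus differed between the groups. However, they follow the most abundant genes, KRT7 (log2 fold change 0.34) and VIM and FN1 (-0.39 and -0.26). Neither list moved in one direction throughout. Of the urothelial genes tested, most were higher: KRT7, KRT18, KRT19 and GATA3 were called higher, and only ELF3 was called lower. UPK3B and PPARG had positive fold changes and KRT8 a negative one (-0.08), and none of them was called. Of the mesenchymal genes, VIM, FN1 and ZEB2 (-0.50) were called lower and COL1A1 was called higher (1.89). ZEB1 and SNAI2 were not called (0.09 and 0.12). These genes were named after their values were seen, and their part in the results on the ERBB genes was not tested. Of 4 blood cell markers, 3 were at or under 3 counts in every library, and the summed normalized counts were at most 16.2 for this list and 21.0 for the endothelial list, of which 2 genes were in the files. In bulk RNA, more cells that express a gene and more RNA per cell cannot be told apart.

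**Figure D1:**
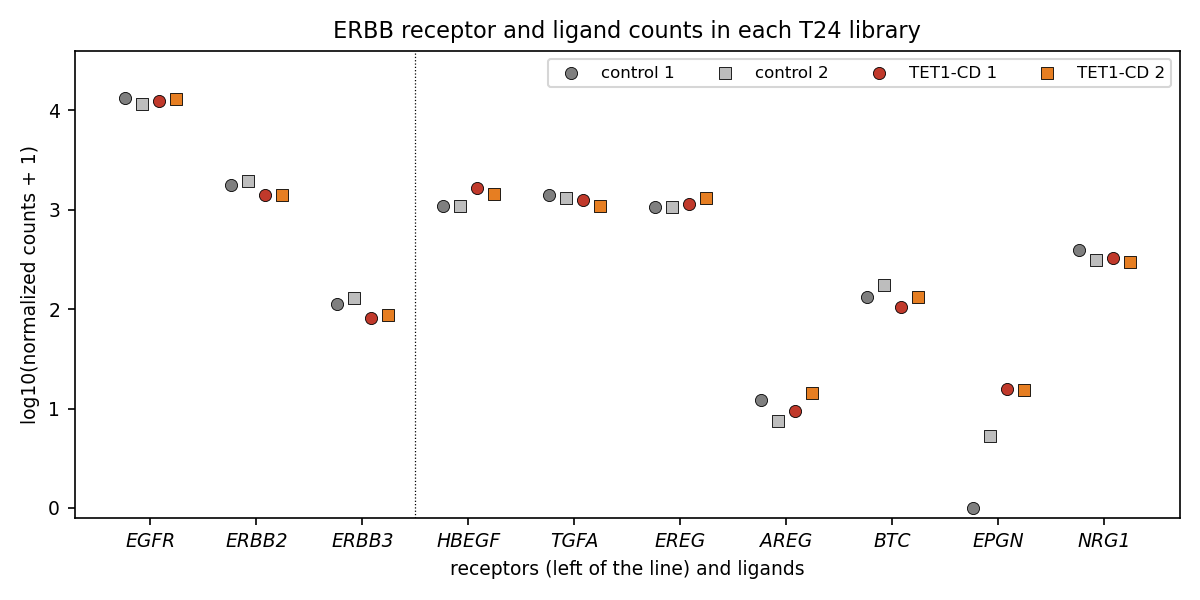
Normalized counts of the 10 member genes in each library, as log10(normalized counts + 1), with receptors to the left of the dotted line. HBEGF lies higher and ERBB2 and ERBB3 lie lower in both TET1-CD libraries than in both control libraries, and EGFR is near 4.1 in all 4.

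Among the receptors, EGFR (chromosome 7, 55086714 to 55324313, plus strand) had 14311 and 10849 counts in control and 11595 and 13629 in TET1-CD cells. After TMM normalization, the means were 12456 ± 1059.6 (SD, n = 2) and 12660.3 ± 454 (SD, n = 2). The control libraries lay on both sides of the TET1-CD libraries. The log2 fold change was 0.02 (95% interval -0.12 to 0.17, adjusted p = 0.844 by edgeR), so a change of more than 0.17 in either direction on the log2 scale lies outside the interval of these libraries. The transcript ENST00000275493, with 28 exons and 3630 coding bases in GENCODE release 44, took between 98.5% and 99.0% of the gene's counts in every library. The antisense gene EGFR-AS1, which overlaps EGFR, had at most 16 counts.

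ERBB2 (chromosome 17, 37844167 to 37886679, plus strand) had 1924 and 1791 counts in control and 1321 and 1470 in TET1-CD cells. Its normalized counts were 1854 ± 111 (SD, n = 2) in control and 1403 ± 4.05 (SD, n = 2) in TET1-CD cells, and both TET1-CD libraries were below both control libraries. ERBB2 thus fell by 0.40 on the log2 scale (SE 0.06, 95% interval -0.54 to -0.26, adjusted p = 0.00200 by edgeR). The transcript ENST00000540147 took 87.8% to 95.1% of its counts. MIEN1 and PGAP3 overlap ERBB2 on the opposite strand in the files, with 308 to 351 and 101 to 153 counts, and the sources used here do not say whether counting used strand. MIEN1 had 320 and 328 counts in control and 308 and 351 in TET1-CD cells, and the counts of both genes overlapped between the groups. Without strand, fragments of these genes and of ERBB2 cannot be told apart where they overlap.

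ERBB3 (chromosome 12, 56473641 to 56497289, plus strand) was the least abundant of the receptors, with 120 and 118 counts in control and 76 and 90 in TET1-CD cells. The groups did not overlap, at 119 ± 11.7 against 83.3 ± 3.42 normalized counts (SD, n = 2 each). Its log2 fold change of -0.51 (SE 0.16, 95% interval -0.87 to -0.15) missed the threshold by a narrow margin (adjusted p = 0.0505 by edgeR, and between 0.0248 and 0.285 under the alternatives). ERBB4, the remaining receptor of the family, was at 1 to 3 counts in every library and could not be tested.

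Levels of different genes were compared as FPKM, which is scaled to transcript length. EGFR was at 77.98 and 67.61 FPKM in control and 71.97 and 77.73 in TET1-CD cells, and made up 70.8% to 79.0% of the summed FPKM of the 3 receptors. ERBB2 was at 21.41 and 24.98 FPKM in control and 17.31 and 18.83 in TET1-CD cells. ERBB3 was at 1.76 and 2.84 FPKM in control and 1.83 and 2.11 in TET1-CD cells, so on this scale its groups overlapped. The order EGFR, ERBB2, ERBB3 held in every library, with gaps far wider than the spread between libraries. The ratio of EGFR to ERBB2 was 3.64 and 2.71 in control and 4.16 and 4.13 in TET1-CD libraries.

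Among the ligands, HBEGF, the heparin-binding growth factor that signals through EGFR and ERBB4, had the smallest p of the 10 members. The gene (chromosome 5, 139712428 to 139726216, minus strand) had 1192 and 1021 counts in control and 1560 and 1516 in TET1-CD cells. Normalized, the control libraries were nearly equal at 1101 ± 1.29 (SD, n = 2), and the TET1-CD libraries were at 1552 ± 153 (SD, n = 2), both above both controls. HBEGF rose by 0.49 on the log2 scale (SE 0.07, 95% interval 0.33 to 0.66, adjusted p = 0.00158 by edgeR), which is a fold of 1.41 and under a fold change of 2. Its transcript ENST00000230990, with 6 exons and 624 coding bases, took at least 98.5% of the counts in each library.

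TGFA (chromosome 2, 70674412 to 70781325, minus strand), an EGFR ligand, was not called. It had 1524 and 1202 counts in control and 1190 and 1150 in TET1-CD cells. The normalized counts did not overlap, at 1352 ± 77.2 and 1181 ± 121 (SD, n = 2 each), with a log2 fold change of -0.20 (95% interval -0.37 to -0.02, adjusted p = 0.109 by edgeR). EREG, which binds EGFR and ERBB4, was not called either, with 1145 and 996 counts in control and 1065 and 1366 in TET1-CD cells. It had a log2 fold change of 0.19 (95% interval 0.03 to 0.36, adjusted p = 0.0961 by edgeR), with normalized counts of 1066 ± 12.9 against 1217 ± 119 (SD, n = 2 each).

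**Figure D2:**
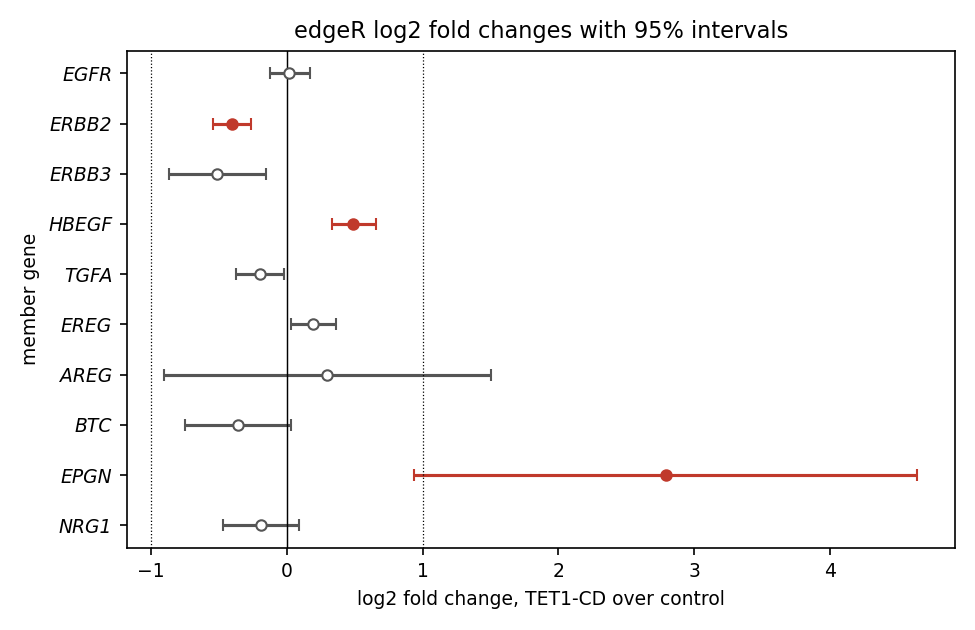
The edgeR log2 fold change of each member gene, TET1-CD over control, with its 95% interval as a bar. Filled red points passed an adjusted p of 0.05 (ERBB2, HBEGF and EPGN), open points did not, EPGN was tested only through its high TET1-CD counts, and dotted lines mark a fold change of 2.

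The remaining EGFR ligands were scarce. BTC, which like EREG binds EGFR and ERBB4, had 144 and 160 counts in control and 98 and 139 in TET1-CD cells, a log2 fold change of -0.36 (95% interval -0.75 to 0.03, adjusted p = 0.189 by edgeR). AREG had 12 and 6 counts in control and 8 and 14 in TET1-CD cells, and the groups overlapped. Its interval of -0.90 to 1.5 on the log2 scale takes in a 2-fold higher level, so that such a change in AREG was not detectable at this depth (log2 fold change 0.30, adjusted p = 0.743 by edgeR). AREGB, a near-identical copy listed as a separate gene, was at 0 counts in 3 libraries and at 1 in TET1-CD replicate 2, so few fragments were assigned to it. How fragments shared by both copies were handled is not given, so the AREG counts may be incomplete.

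EPGN, an EGFR ligand of epithelia, had 0 and 4 counts in control and 14 and 15 in TET1-CD cells. Both TET1-CD libraries were above both controls, and the fit gave a log2 fold change of 2.79 (SE 0.83, 95% interval 0.94 to 4.64, adjusted p = 0.0404 by edgeR). Summed over libraries, 29 against 4 counts give a ratio of 7.39 per fragment sequenced, with an exact 95% interval of 2.59 to 28.9 that covers counting error only. As the low counts in control would not have let EPGN into the test, neither its p nor its interval is support for a difference. The call was lost with DESeq2 (adjusted p = 0.105), which called 11.9% of all genes tested, against 19.7% with edgeR. It also did not hold when control replicate 1, TET1-CD replicate 1 or TET1-CD replicate 2 was left out. In those fits the share called over all genes moved too. Without control replicate 1, the library at 0, the log2 fold change of EPGN was 1.72, and without control replicate 2 it was 6.91. It was 2.76 without TET1-CD replicate 1 and 2.81 without TET1-CD replicate 2. EPGN was at 0 and 0.32 FPKM in control and 1.06 and 0.72 in TET1-CD cells, among the least abundant of the ligands.

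EPGN, EREG, AREG and BTC lie next to each other on chromosome 4, from 75174190 (the start of EPGN) to 75719896 (the end of BTC), a stretch of 546 kb. EPGN ends at 75181024, EREG runs from 75230860 to 75254468, AREG from 75310851 to 75320726, all on the plus strand, and BTC starts at 75669969 on the minus strand. The files list 9 genes in this interval, and the 5 that are not members had at most 1 count in any library. The neighbours differed widely in level, as EREG was at 20.8 to 36.3 times the FPKM of AREG over the 4 libraries, with 56382 bases between the genes. This ratio carries the limit on the AREG counts given above. Of the 4 neighbours, EPGN was called, and the fold changes of EREG and BTC had opposite signs and did not pass the test.

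On the FPKM scale, HBEGF led the ligands in every library, with 24.82 and 24.88 in control and 37.70 and 32.67 in TET1-CD cells. TGFA followed at 20.65 and 19.54 in control and 19.87 and 17.89 in TET1-CD cells. EREG was at 12.67 and 12.72 in control and 13.67 and 15.61 in TET1-CD cells, and NRG1 at 8.83 and 7.74 in control and 8.04 and 7.29 in TET1-CD cells. This order, with BTC the fifth at 2.13 to 4.0, was the same in all 4 libraries, and the ranges of neighbours in it did not overlap within a group. AREG and EPGN changed places in TET1-CD replicate 1, where they were at 0.47 and 1.06 FPKM, and their order is therefore not resolved.

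Summed over the 7 ligands, FPKM was 70.3 and 69.6 in control and 82.9 and 78.2 in TET1-CD cells. HBEGF made up 35.3% and 35.8% of this sum in control and 45.5% and 41.8% in TET1-CD cells. The share of TGFA was 29.4% and 28.1% in control and 24% and 22.9% in TET1-CD cells. The ratio of HBEGF to TGFA was 1.20 and 1.27 in control and 1.9 and 1.83 in TET1-CD libraries, and as a ratio within a library it does not depend on how the libraries were scaled to each other.

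**Figure D3:**
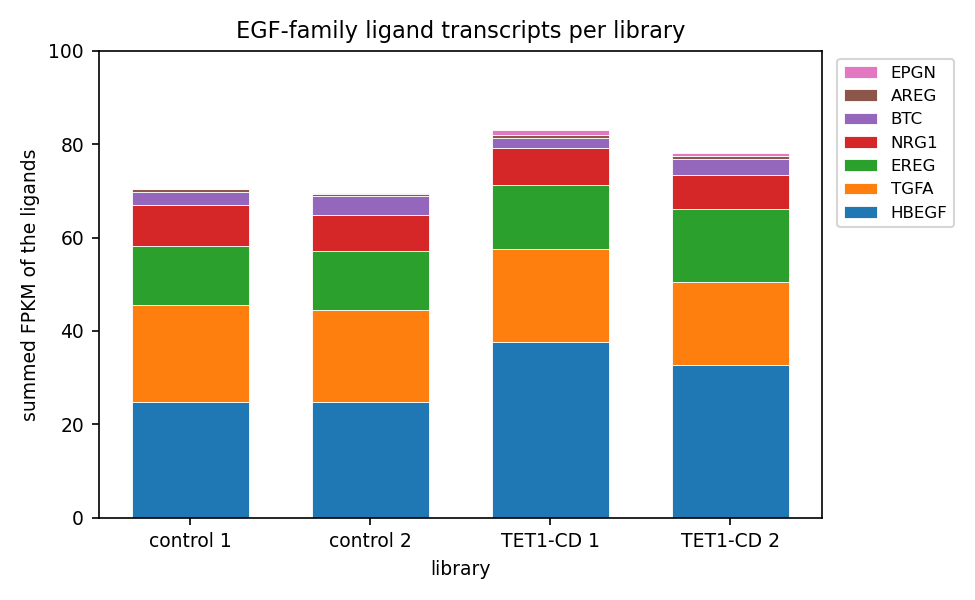
Summed FPKM of the 7 ligand genes in each library, stacked by gene. HBEGF, at the bottom of each bar, rises from about 24.8 in the control libraries to 37.7 and 32.7 in the TET1-CD libraries, while the other segments differ less in height.

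NRG1, the neuregulin that binds ERBB3 and ERBB4, is transcribed from chromosome 8 (31496902 to 32622548, plus strand) into many forms. The gene had 430 and 289 counts in control and 305 and 315 in TET1-CD cells. Normalized, control replicate 1 lay above both TET1-CD libraries and control replicate 2 lay between them, at 354 ± 60.1 against 312 ± 17.4 normalized counts (SD, n = 2 each). Its log2 fold change was -0.19 (95% interval -0.47 to 0.09, adjusted p = 0.330 by edgeR). Without control replicate 2, it was -0.35, and without control replicate 1 it was -0.01.

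No single transcript carried NRG1, whereas the leading transcript of each other member held at least 65.3% of its counts when the 4 libraries were pooled. In single libraries the share was lower for ERBB3 (43.0% in TET1-CD replicate 2) and EPGN (56.4% in control replicate 2). For TGFA, EREG and BTC the pooled share was 93.2%, 98.9% and 94.9%. The files list 21 NRG1 transcripts, of which 4 held at least 10% of the gene's counts over all libraries. These were ENST00000287842 (25.5%), ENST00000521670 (16.9%), ENST00000338921 (15.1%) and ENST00000356819 (14.7%). Of these, ENST00000338921 was not matched in GENCODE release 44. ENST00000356819, with 12 exons and 1911 coding bases, was estimated at 91 and 82 counts in control and 8 and 16 in TET1-CD cells. ENST00000405005 (12 exons, 1920 coding bases), which was singled out after its values were seen, was at 0 and 0 counts in control and 53 and 54 in TET1-CD cells. In GENCODE release 44, 11 of the 12 coding blocks of these transcripts are identical. Their summed estimate was 91.1 and 81.6 in control and 61.6 and 70.3 in TET1-CD cells, so the sum differed far less than either estimate.

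Tested over all 43213 transcripts, neither of these was called by edgeR (adjusted p = 0.238 for ENST00000356819 and 0.217 for ENST00000405005). ENST00000405005 passed the filter only through its TET1-CD libraries, and ENST00000356819 only with its control libraries, where each was high. Their p-values are therefore given as a description. Of the 109 member transcripts, 33 had enough counts for this test, and 0 passed an adjusted p of 0.05 by edgeR, against 0.00231% of all transcripts. At an unadjusted p under 0.05, 4 of the 33 did (12.1%), close to the 11.2% of all transcripts tested. Both NRG1 transcripts are among the 4, so this share carries the same reservation and says nothing further about the members. DESeq2 called 4 of the 33, namely these NRG1 transcripts and the leading transcripts of HBEGF and ERBB2, and limma-voom called 0. The share of all transcripts that DESeq2 called was not computed, so its 4 calls have no background beside them. The uncertainty of assigning fragments to transcripts is not in the files and is not part of either test. Estimates could differ widely between replicates, as ENST00000338921 was put at 105 and 0 counts in the control libraries.

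**Figure D4:**
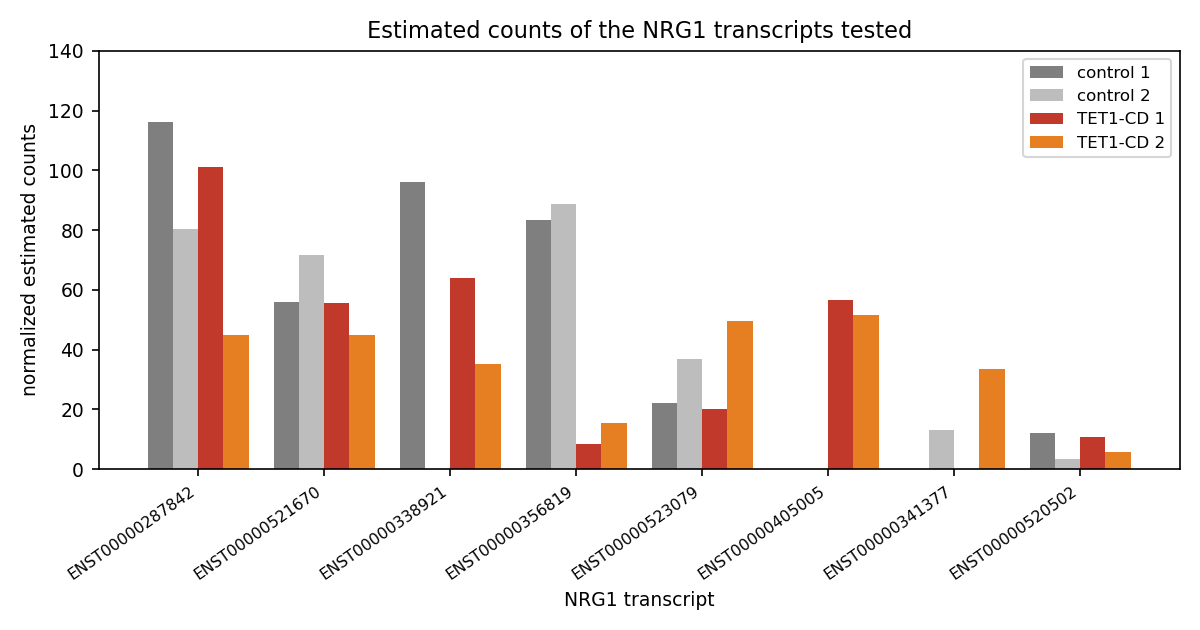
Normalized estimated counts of the 8 NRG1 transcripts that were tested, as a bar for each library. ENST00000356819 is high in both control libraries and low in both TET1-CD libraries, ENST00000405005 shows the reverse, and ENST00000338921 differs as widely between the control libraries.

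Of the 5 other genes of the family, 3 were tested and 1 was called. NRG2, which like NRG1 is a neuregulin, had 190 and 137 counts in control and 75 and 127 in TET1-CD cells, and fell by 0.68 on the log2 scale (SE 0.19, adjusted p = 0.0337 by edgeR). EGF was at 16 to 24 counts and NRG4 at 17 to 27, neither was called, and NRG3 was at 0 counts in all but one library, which had 1.

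Genes that act around the receptors were taken from 5 hand-written lists with 71 genes, all of which were tested. Of these, 16 passed an adjusted p of 0.05 by edgeR (9 higher and 7 lower, 22.5%), close to the 19.7% over all genes, and 1 had a fold change over 2. In the ligand shedding list, 4 of 10 genes passed. TIMP3, an inhibitor of ADAM17, rose from 42 and 44 counts to 124 and 153, a log2 fold change of 1.69 (SE 0.18, adjusted p = 2.34e-04 by edgeR). ADAM17, the sheddase of most EGFR ligands, had 1700 and 1459 counts in control and 1159 and 1321 in TET1-CD cells and fell by 0.33 on the log2 scale (SE 0.06, adjusted p = 0.00331 by edgeR). RHBDF2, an adaptor that brings ADAM17 to the cell surface, fell by 0.51 (adjusted p = 0.0159 by edgeR), and FRMD8, which binds these adaptors, rose by 0.19 (adjusted p = 0.0464 by edgeR). ADAM10, the main sheddase of BTC, had a log2 fold change of -0.08 and was not called. The median of the list was -0.08.

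Among the 14 negative regulators of the receptors, 2 were called, in opposite directions. ERRFI1 (also known as MIG6), which binds and blocks the EGFR kinase, had 3656 and 3204 counts in control and 2512 and 2476 in TET1-CD cells and fell by 0.44 on the log2 scale (SE 0.07, adjusted p = 0.00163 by edgeR). LRIG1, which promotes the degradation of ERBB receptors, had 127 and 104 counts in control and 161 and 186 in TET1-CD cells and rose by 0.60 (SE 0.13, adjusted p = 0.0108 by edgeR). Of the 14 adaptors, GAB1 fell by 0.46 (adjusted p = 0.0169 by edgeR) and STAT3 rose by 0.17 (adjusted p = 0.0479 by edgeR). The adaptors GRB2, SHC1 and SOS1, which link the receptors to RAS, were not called. The median log2 fold change was -0.01 for the negative regulators and -0.09 for the adaptors.

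In the RAS, RAF and PI3K core, 4 of 18 genes were called. Among them, the kinases AKT1 and MAPK3 rose by 0.28 and 0.29 on the log2 scale (adjusted p = 0.00716 and 0.0330 by edgeR). The median of this list was -0.02. Among 15 transcripts known to respond to ERK, 4 were called, and they split evenly by direction. DUSP5 (0.38) and SPRY4 (0.21), both feedback inhibitors, were higher, whereas the transcription factor ETV4 fell by 0.41 and the cyclin CCND1 fell by 0.22. The median of the ERK-responsive list was -0.05. EGR1, an immediate-early target, was at 148 to 172 counts in all 4 libraries.

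**Figure D5:**
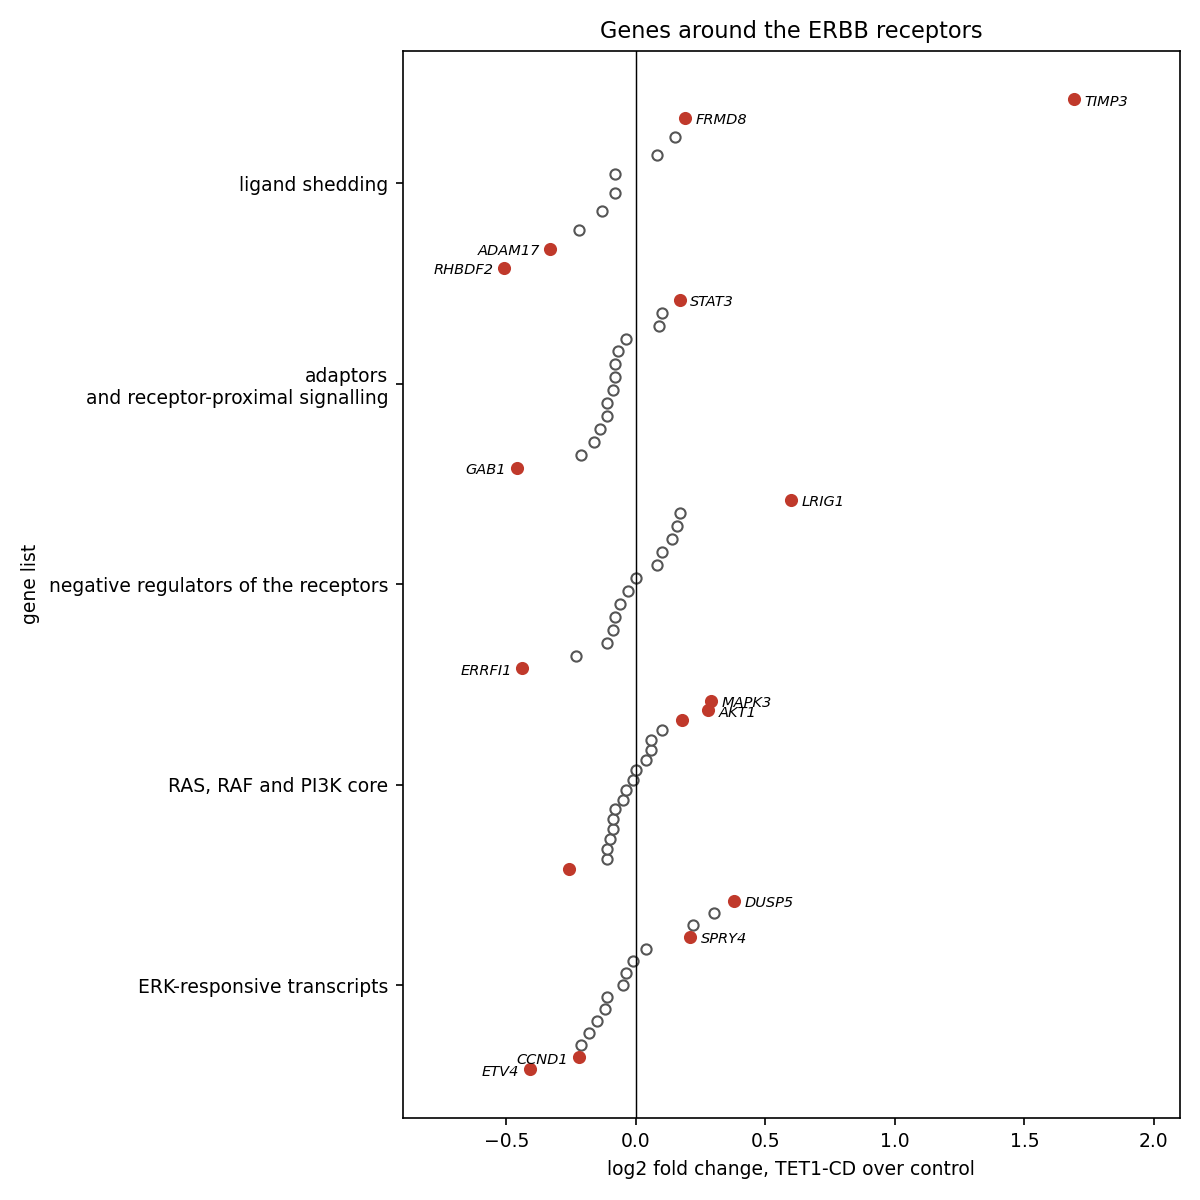
Log2 fold changes, TET1-CD over control, of the 71 genes in the 5 lists around the receptors, spread vertically within each list. Filled red points are the 16 genes past an adjusted p of 0.05, with a name where the text gives one, while most points lie within 0.3 of 0, and TIMP3 at 1.69 lies farthest from it.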

How the data were processed

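RNAseq was analysed for 2 control and 2 TET1-CD libraries of T24 cells. The authors deposited estimated counts, which need not be whole, and FPKM values for each transcript, with GRCh37 coordinates. The submitters' processing notes name hg19, cutadapt 1.9.1, HISAT2 2.0.1, HTSeq 0.6.1 and DESeq2, and the tool that made the estimated counts is not given in the sources used here.

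For each gene, the estimated counts of its transcripts were added up and then rounded, and FPKM was likewise added up. Groups were compared with edgeR 4.0.16 in R 4.3.3 (TMM factors 0.9934 to 1.005, filterByExpr, glmQLFit and glmQLFTest, no block) over all genes tested. Standard errors were taken as |log2 fold change| / √F, and the intervals from them are approximate. Normalized counts are scaled to the mean library. Transcripts were tested likewise over all transcripts. A call was an adjusted p under 0.05. Replicates of both groups differed by more than sampling noise (chi-square per gene of 6.41 in control and 2.75 in TET1-CD cells). The script was checked on simulated data, in which the transcript test recovered few changes. Alternatives used DESeq2 1.42.0, limma 3.58.1 and other filters and scalings. Named were all members, up to 5 called genes per list, and transcripts with at least 10% of a member's counts. Of the called genes of the RAS, RAF and PI3K list, 2 are not reported here by name. ADAM10, GRB2, SHC1, SOS1, EGR1 and the genes overlapping members were named outside this rule, after their values were seen. The members and lists were chosen with earlier results of these data known. Intervals cover counting error or the spread of libraries only.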

Additional observations from a re-analysis of the deposited data

How the results depend on the processing

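HBEGF and ERBB2 kept their direction and their call under all 11 alternatives with a test, with log2 fold changes of 0.39 to 0.59 and -0.47 to -0.34. The number of members past an adjusted p of 0.05, 3 in the main analysis, was 5 without a filter on low counts and 5 with the replicate number as a block, where ERBB3 (adjusted p = 0.0248 and 0.0416 by edgeR) and TGFA (0.0373 and 0.0467) were added. The share of all genes called was 14.3% without the filter and 22.2% with the block, against 19.7%. With 1 library omitted at a time, the lone library of a group is assumed to vary like the others. The number of members called then moved, as did the share called over all genes, so calls from these fits are a description only. Without control replicate 1, the log2 fold changes of BTC and ERBB3 were -0.55 and -0.62. Without control replicate 2, those of NRG1 and TGFA were -0.35 and -0.26. The count past a fold change of 2, which was EPGN alone, was 0 with DESeq2, 0 with 10 counts in every library (which removes EPGN) and 0 to 1 with a library omitted. The member transcripts called numbered 4 with DESeq2 and 1 without a filter (ENST00000405005), and the shares over all transcripts at these settings were not computed. EGFR (-0.06 to 0.11) and AREG (-0.06 to 0.75) changed sign when a library was left out and were never called. The cause of these differences was not tested. The replicate numbers do not pair the libraries by any label. Deviations of same-numbered libraries had a correlation of 0.007 over all genes tested and 0.217 over those above the median CPM. The sum of AREG and AREGB, added after the data were seen, left AREG uncalled. At the depth of AREG and EPGN, changes under 2-fold cannot be resolved.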

Other observations

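The scale chosen for ERBB3 and TGFA moved their size. The ratio of mean FPKM gave a log2 value of -0.22 for ERBB3, against -0.51 from counts, and one of -0.09 for TGFA, against -0.20. For ERBB3, the long transcript ENST00000267101 (28 exons) was estimated at 92 and 80 counts in control and 53 and 39 in TET1-CD cells. Another long coding form, ENST00000415288 (29 exons, 3849 coding bases), was at 0 and 0 counts in control and 0 and 23 in TET1-CD cells. It took 25.9% of the gene's counts in TET1-CD replicate 2, so the lower estimate of ENST00000267101 there depends on how fragments were split between long forms. The short ENST00000411731 (3 exons, 549 coding bases) was at 16 and 27 counts in control and 22 and 22 in TET1-CD cells. Per length, the short transcript was at 0.78 and 1.53 FPKM in control and 1.26 and 1.13 in TET1-CD cells. ENST00000267101 was at 0.77 and 0.78 FPKM in control and 0.51 and 0.33 in TET1-CD cells. Neither ENST00000267101 nor ENST00000411731 was called by edgeR (adjusted p = 0.474 and 0.997), and ENST00000415288 did not pass the filter.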
